A study of Mus musculus with 6 samples.

Results

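The cytosolic ribosomal protein genes encode the proteins of the large (Rpl, Rplp) and small (Rps) subunits of the ribosome that translates nuclear mRNA. They were taken by symbol: a gene was a member when a probe set of the array carried a single symbol made of Rpl, Rps or Rplp followed by a number and, in some, further letters, with the Rps6k kinases left out. This gave 34 genes, 17 of the large and 17 of the small subunit, of the 8251 genes named on the array, and 48 of its 12488 probe sets. Rps6, the subunit protein phosphorylated downstream of mTOR, and Rps27a, a ubiquitin fusion, had no probe set with a single symbol and have no value here. The rule uses no measured value, but it was chosen with earlier results of these data known.

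The study took livers of male mice, 8 to 10 weeks of age, from 3 genotypes at 2 circadian times and ran 1 array per genotype and time. Circadian time is counted in hours of the animal's own day: CT02 (2 h) falls soon after subjective dawn, when mice go to rest, and CT14 (14 h) soon after subjective dusk, when they become active. Wild-type mice were stated to be of C57BL/6 background; the mutants were Clock mutant mice and Cry-deficient mice, of which the CT02 sample was labelled a double knockout of Cry1 and Cry2 and the CT14 sample only Cry-deficient. Clock, a transcription factor, binds E-boxes together with Bmal1, and cryptochromes are repressors of that pair. The sources used here do not give the allele of the Clock mutant, the background of either mutant, or whether an array held RNA of 1 mouse or of several. With 1 array per group no difference below has a replicate check and no test was made. The design asks how the RNA of a gene differs between the times within a genotype, and between each mutant and wild type at each time.

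Each ribosome holds a single copy of nearly every ribosomal protein, so their genes have to deliver matched amounts. Their mRNAs are abundant and long-lived, and most begin with a C followed by an unbroken run of pyrimidines, the 5′ terminal oligopyrimidine (TOP) motif, through which nutrient signalling by mTOR switches their translation on and off. In mouse liver the translation of these mRNAs is known to follow the daily cycle of feeding, so that their amount and their use can differ. The genes also have many processed pseudogenes, copies of the mRNA in the genome, which probe sets for short conserved messages can share.

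Of the 34 members, 27 had a promoter window in a RefSeq-derived table of assembly GRCm38.p6 (36 windows, 250 bases before to 50 after each annotated start). A run of at least 8 pyrimidines that opens with C within 20 bases of an annotated start, on the gene's strand, was found in 11 of 27 member genes (40.7%) and in 14.5% of all 27025 genes in the table. The start regions of 6 members that hold such a run are shown because this is the feature the family is known for; each window runs 20 bases to either side of the start, 5′ to 3′ on the gene's strand, with the run in capitals.
Rpl7a (chr2:26910787-26910826, plus strand): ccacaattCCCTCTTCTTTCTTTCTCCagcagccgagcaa
Rps18 (chr17:33955646-33955685, minus strand): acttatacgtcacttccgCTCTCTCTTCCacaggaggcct
Rps10 (chr17:27635225-27635264, minus strand): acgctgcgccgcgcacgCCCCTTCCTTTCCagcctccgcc
Rps24 (chr14:24490658-24490697, plus strand): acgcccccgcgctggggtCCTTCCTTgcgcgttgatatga
Rpl13a (chr7:45128726-45128765, minus strand): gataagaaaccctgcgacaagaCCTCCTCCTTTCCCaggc
Rps27 (chr3:90213629-90213668, minus strand): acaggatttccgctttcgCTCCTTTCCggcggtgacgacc

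The windows of 4 members whose values stand out below hold no run of that length at the annotated start, which says only that these letters are not in this stretch.
Rplp0 (chr5:115559447-115559486, plus strand): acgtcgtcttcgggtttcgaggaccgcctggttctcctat
Rpl41 (chr10:128549149-128549188, minus strand): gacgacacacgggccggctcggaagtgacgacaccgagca
Rps4x (chrX:102189372-102189411, minus strand): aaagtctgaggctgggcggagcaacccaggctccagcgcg
Rpl7l1 (chr17:46782637-46782676, minus strand): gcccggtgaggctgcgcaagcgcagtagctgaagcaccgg

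The other motifs were searched in the whole 300-base windows on both strands. The E-box CACGTG, the sequence that Clock and Bmal1 bind, was present in 3 of 27 member genes (11.1%), beside 8.09% of all genes. CCGGAAG, an ETS-type sequence, was present in 11 member genes (40.7%, beside 9.93%), and AAGATGG, a YY1-type sequence, in 7 (25.9%, beside 7.28%). GGGCGG, an SP1-type sequence, was in 16 (59.3%, beside 38.2%) and TATAAA in 4 (14.8%, beside 15.7%). The last bases of CCGGAAG are the first of AAGATGG, so matches to the pair can overlap. The E-boxes are shown with the motif in capitals because the genotypes concern its binding proteins.
Rpl13a (chr7:45128923-45128962, minus strand, 200 bases upstream of the start): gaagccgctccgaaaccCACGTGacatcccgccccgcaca
Rpl19 (chr11:98026674-98026713, plus strand, 19 or 233 bases upstream of its annotated starts): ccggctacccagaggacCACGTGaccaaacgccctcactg
Rps19 (chr7:24884776-24884815, plus strand, 120 bases upstream of an annotated start): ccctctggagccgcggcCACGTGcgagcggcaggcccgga

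The arrays differed in overall brightness, with a mean deposited intensity of 1637 on the Clock mutant CT02 array and between 2182 and 2486 on the other 5, so all values below were scaled by 1 factor per array. Scaled values are given in the order wild type CT02 and CT14, Clock mutant CT02 and CT14, Cry-deficient CT02 and CT14. A value below 606 scaled units, the median over all probe sets and arrays, was not read as a level. A scaling by 1 factor did not bring the bright ends of the arrays together: the highest scaled value was 30305, 30135, 35930, 31476, 33439 and 28410, and the brightest 10% of genes (485) sat at a median log2 deviation from their own means of 0.21 on the Clock mutant CT02 array and -0.09 on the Clock mutant CT14 array. The ratio of 3′ to 5′ probe sets of Actb, a sign of RNA integrity, was 2.68 on the Clock mutant CT02 array, 1.70 on the Cry-deficient CT02 array and at most 1.15 on the other 4, but that of Gapdh was 0.56 on the Clock mutant CT02 array, the lowest of all, 2.37 on the Cry-deficient CT02 array and 0.59 to 0.72 on the other 4. The pair of controls thus differed in which array stood out, and only the Cry-deficient CT02 array was high in both. Hepatocyte markers summed to 98395 to 133956 scaled units over the 6 arrays, with 8 of 8 measured markers kept, while 5 of 5 measured T cell markers and 3 of 3 measured cholangiocyte markers were under the floor on every array. Neutrophil markers, 2 of 6 kept (Camp and Elane), summed to 8750 on the Clock mutant CT02 array and to 3898 to 4616 on the other 5. Each marker sum is over all measured markers of its list, those under the floor included, with values below 0 taken as 0. Stellate cell markers, 4 of 5 measured ones kept, summed to 6332 on the Cry-deficient CT02 array and to 8161 to 12519 on the other 5. These arrays are the CT02 side of the mutant ratios below, and the part of these cells in them was not tested. Probe sets of the targeted genes, whose place relative to the mutations the labels do not give, gave signal on the mutant arrays, so they do not check the labels. At CT02 and CT14, Clock read 1640 and 2069 in the Clock mutant, with 2430 and 1552 in wild type. Cry2 read 1185 and 1344 in the libraries labelled Cry-deficient and 1215 and 2256 in wild type. For Cry1 1 of 3 probe sets passed the floor, and it read higher in those libraries (3845 and 4718) than in wild type (1833 and 2723).

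A mean over the 6 arrays at or above the floor was reached by 23 of the 34 members, 12 of the large and 11 of the small subunit, as it was by 4844 of the 8251 genes. The kept members fell into 18 with a mean above 5000 scaled units, from 5951 to 30226, and 5 between 812 and 2526. The brightness of a probe set depends on its own probes and is not compared between genes as an amount of RNA. The 18 bright members, 9 of each subunit, lay at a median percentile of 98.05 among the probe-set signals of the kept genes, and the lowest of them at 78.0. Rpl7, a large-subunit protein, read 27893, 29044, 34161, 31476, 31360 and 27421 through a probe set marked as shared by similar transcripts, and on the Clock mutant CT14 array its deposited intensity of 32974 was the highest of all probe sets. Rps3a1, which lies near the mRNA exit, read 27492, 28160, 34054, 24349, 31379 and 27220. After scaling both genes were highest on the Clock mutant CT02 array, and both were close to each array's upper end. In the deposited values the same array was the lowest for both (25352 for Rpl7 and 25273 for Rps3a1).

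**Figure D1:**
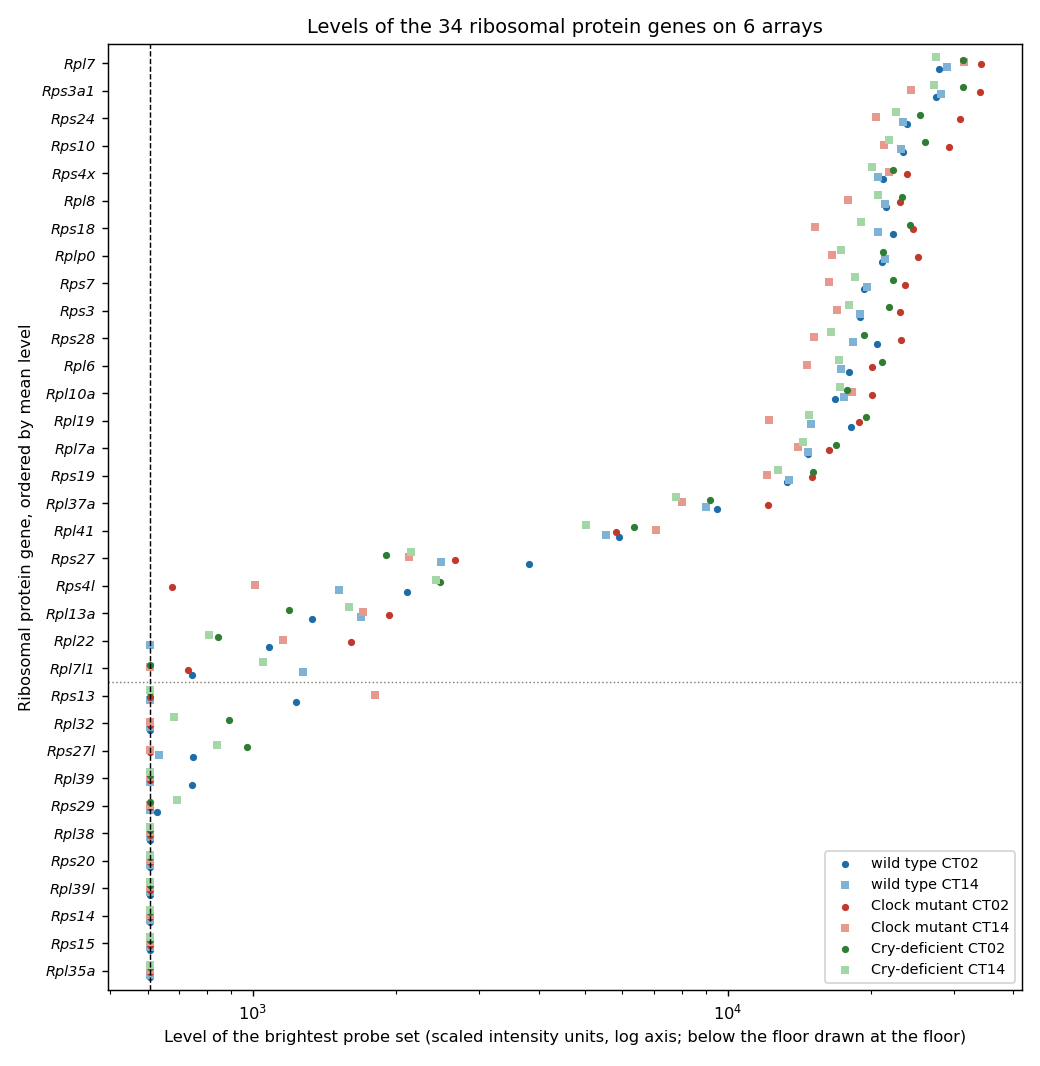
Scaled intensity (log axis) of the 34 member genes on each of the 6 arrays, 1 point per array, with the floor of 606 scaled units as a line. The 18 bright members lie in narrow bands above 5000, 5 kept members have means between that level and the floor, and 11 members have means under the floor.

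Among the 11 members that were not kept, 6 (Rpl35a, Rpl38, Rpl39l, Rps14, Rps15 and Rps20) were under the floor on every array. Rps13, a small-subunit protein, read 1229, -18, 411, 1803, -145 and -246, above the floor only on the wild-type CT02 and Clock mutant CT14 arrays, through a probe set marked as built under reduced rules. Rps27l, a paralog of Rps27, read 747, 633, 237, -778, 974 and 839, above the floor on the wild-type and Cry-deficient arrays and under it on both Clock mutant arrays. Rpl32 (397, 10, 260, 472, 889 and 681) and Rps29 (627, 149, 80, 260, 479 and 691) passed the floor on 2 arrays each, and Rpl39 (743, 541, 592, 215, 228 and 120) on 1. A low reading here describes the probe sets of this array, and no amount of mRNA was read from it.

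Within a member, probe sets differed widely in whether they gave signal. Of the 48 probe sets, 27 had a mean at or above the floor and 6 were below 0 on every array. Rps4x, the X-linked small-subunit protein, had 5 probe sets: 1 read 20180 to 23816 scaled units over the arrays, and the other 4 were below 0 on all 6. Rpl7 and Rps29 each had 1 probe set of that kind. A gene was therefore represented by its brightest probe set.

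Wild-type liver showed almost the same levels of the bright members at both times. The median log2 ratio of CT14 over CT02 was -0.01 over the 18 bright members, with an SD of 0.09 over genes and a range from -0.28 (Rpl19) to 0.07 (Rpl10a). Over the 23 kept members it was -0.01, with quartiles of -0.10 and 0.02, where all kept genes had quartiles of -0.21 and 0.19 around a median of -0.01. None of the 23 was 2-fold apart, and 4.65% of the 4749 genes compared were. In all, 14 members lay below 0 and 9 above, and 51% of all genes lay below. Counting the members outside the filter that were above the floor on at least 1 of the arrays compared gave 27 genes with a median of -0.04. The brightest 10% of genes was as flat in median (-0.01), so the closeness of the bright members to 0 was shared with other bright genes. Since this is whole liver, fewer cells of a type and less RNA per cell cannot be told apart here or below.

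Rps3, which lines the mRNA entry channel, read 19032 (CT02) and 18976 (CT14) in wild type. Rpl7a, a large-subunit protein, read 14764 and 14796, and Rps19, the protein most often altered in Diamond-Blackfan anaemia, 13366 and 13455. Rpl19, which lies by the exit of the peptide tunnel, was the lowest of the bright members relative to CT02 (18184 and 14976, log2 ratio -0.28), and Rps28 (20675 and 18374, -0.17) and Rps18, of the small-subunit head (22313 and 20752, -0.10), came next. At the other end of the bright members stood Rpl10a (0.07), Rpl7 (0.06) and Rps3a1 (0.03). The dim members lay further out, with Rpl7l1 (0.77) and Rpl13a (0.34) above 0 and Rpl22 (-0.83), Rps27 (-0.62) and Rps4l (-0.48) below it. Rpl19 was not backed by its other probe set: that one read 1247 and 2657 on the same arrays, a log2 ratio of 1.09 in the opposite direction. The further bright probe set of Rps28 read 12720 and 12694, a log2 ratio of -0.00.

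In the Clock mutant most kept members read lower at CT14 than at CT02 after scaling. The median log2 ratio was -0.44 over the 23 kept members (quartiles -0.56 and -0.20), with 21 below 0 and 2 above, beside 49.8% of all genes below 0, but it was -0.17 after quantile normalization, -0.16 after lowess correction and 0.05 in the values as deposited. In the deposited values the median over all genes was itself 0.47, so the members stood 0.42 under it. No member was 2-fold apart, where 7.94% of 4722 genes were. The brightest 10% of genes had a median of -0.29 in the same comparison (409 of 485 below 0) and hepatocyte markers one of -0.45 (8 of 8 below 0), and the part of array brightness and RNA integrity in these ratios was not tested. After quantile normalization the median of the brightest 10% of genes was 0.00, that of the 18 bright members -0.11, and 13 of those 18 lay below 0, in place of 17.

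**Figure D2:**
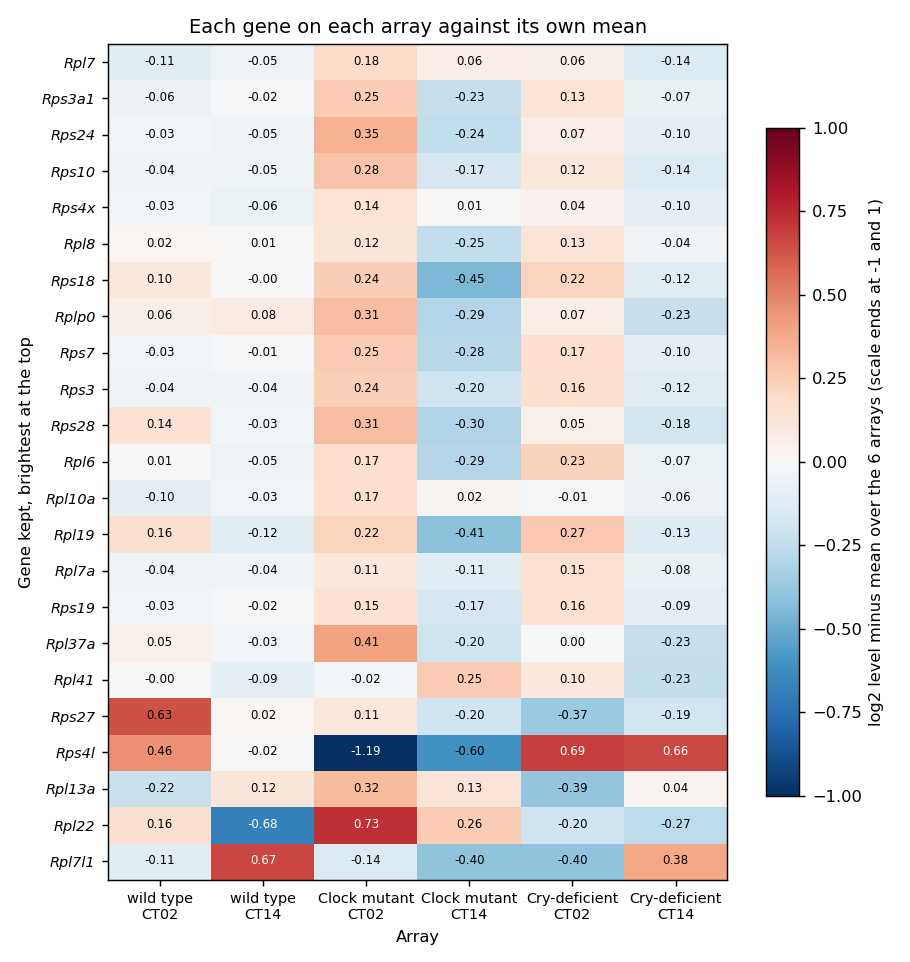
Log2 deviation of each of the 23 kept members from its own mean over the 6 arrays (colour), genes in rows and arrays in columns. After scaling by 1 factor per array, the Clock mutant CT02 array holds the highest value of 14 members, beside 25.6% of all kept genes. The Clock mutant CT14 array holds the lowest of 14, beside 17.3%. The rows of Rps4l, Rpl7l1, Rpl22, Rps27 and Rpl41 break the pattern of the others.

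Rps18 showed the lowest ratio of the Clock mutant (24607 at CT02 and 15245 at CT14, 1.61-fold lower, log2 ratio -0.69). Rpl19 fell next in order at -0.63, from 18901 to 12231, and Rps28 at -0.61, from 23160 to 15208. Rplp0, the base of the stalk that recruits translation factors and the only stalk protein with a single-symbol probe set, read 25123 and 16568 (-0.60). Rps24 read 30900 and 20519 (-0.59). For these 5 genes the ratios after quantile normalization were -0.34, -0.36, -0.27, -0.24 and -0.20 in the same order, and in the deposited values they lay between -0.19 and -0.09, so each stayed below 0 under all 3 scalings.

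The bright members did not share 1 ratio in the Clock mutant. Rps4x read 23816 and 21831 (-0.13), Rpl7 34161 and 31476 (-0.12), Rpl10a 20137 and 18258 (-0.14) and Rpl7a 16333 and 14098 (-0.21). These 4 ratios turned above 0 under the other scalings: in the same order they were 0.22, 0.17, 0.15 and 0.01 after quantile normalization and 0.37, 0.38, 0.36 and 0.29 in the deposited values. Rpl41, which encodes an extremely short basic peptide of the large subunit, went the other way, with 5817 and 7060 (0.28). Spreads within a pair of arrays do not depend on the factor used for scaling: Rpl41 stood 0.74 above and Rps18 0.23 below the median of the 18 bright members. They do depend on a correction that varies with brightness: after quantile normalization Rpl41 stood 0.37 above that median, while Rps18 stood 0.23 below it again. The SD over the 18 was 0.25 there, 0.09 in wild type and 0.08 in the Cry-deficient mice. Rpl41 was read by a probe set marked for a family of related sequences, and its direction of 0.28 was 0.26 after quantile normalization and 0.78 in the deposited values.

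By subunit, the 9 bright small-subunit members had a median of -0.48 in the Clock mutant (9 of 9 below 0) and the 9 large-subunit ones -0.37 (8 of 9). After quantile normalization these medians were -0.12 (8 of 9 below 0) and -0.05 (5 of 9), and in the deposited values they were above 0, at 0.013 and 0.13. Rps24, Rps7, Rps10 and Rps19, listed here as altered in Diamond-Blackfan anaemia, a failure of red cell production, had ratios of -0.59, -0.53, -0.46 and -0.32. That list was not a full one of the genes altered in this disease. After quantile normalization those 4 ratios were -0.20, -0.19, -0.09 and -0.10, and in the deposited values -0.093, -0.032, 0.041 and 0.18. Rps3 (-0.44) and Rps3a1 (-0.48), at the mRNA entry and exit, lay close to the median of the bright members. The same 2 genes had quantile-normalized ratios of -0.12 and -0.06 and deposited ones of 0.058 and 0.013.

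In the Cry-deficient mice the bright members were again lower at CT14 after scaling, by less. The median log2 ratio over the 23 kept members was -0.23 (quartiles -0.27 and -0.10), with 20 below 0 beside 50.3% of all genes. It was -0.08 after quantile normalization and -0.03 as deposited, where the median over all genes was 0.20. All 18 bright members lay below 0 after scaling, from -0.40 (Rpl19) to -0.05 (Rpl10a), 13 of them did after quantile normalization, and 12 in the deposited values. No member was 2-fold apart, and 5.69% of 4729 genes were. The brightest 10% of genes had a median of -0.16. Rpl19 (19559 and 14849), Rps18 (24206 and 19123, -0.34) and Rpl41 (6350 and 5029, -0.34) had the lowest ratios, and Rplp0 read 21283 and 17299 (-0.30). The other probe set of Rpl19 did not back its ratio here either: it read 625 and 1334, a log2 ratio of 1.09. The 3 members above 0 were all dim: Rpl13a (1189 and 1594, 0.42), Rps27 (1903 and 2153, 0.18) and Rpl7l1. Rpl41 was thus higher at CT14 in the Clock mutant and lower at CT14 in the Cry-deficient mice, under each of the 3 scalings.

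**Figure D3:**
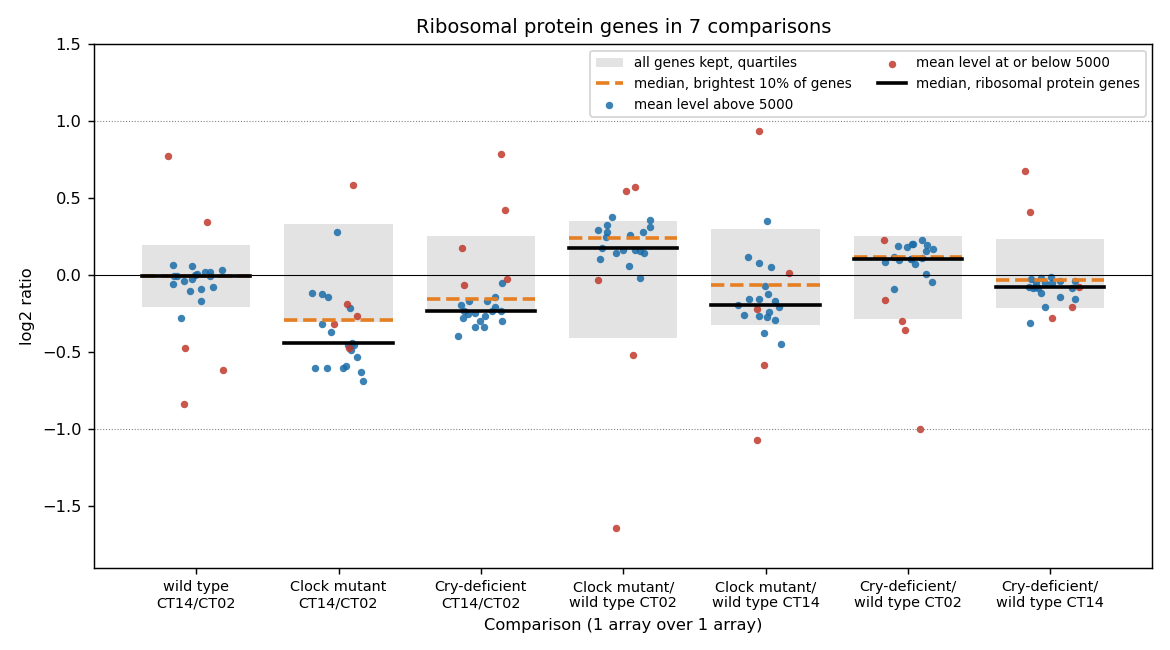
Log2 ratio of each of the 23 kept members in the 7 comparisons (points), with the quartiles of all kept genes (bars) and the median of the brightest 10% of genes (marks). The members form a narrow band near 0 in wild type and follow the side of the brightest 10% of genes in the other 6 comparisons, with a few dim members outside the band.

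At CT02 the Clock mutant read higher than wild type for most members after scaling. The median log2 ratio was 0.17 over the 23 kept members (19 above 0, beside 49.9% of all genes) and 0.21 over the 18 bright ones (17 above 0), and of the 18 bright members 8 lay above 0 after quantile normalization. The median over the 23 turned to -0.02 after quantile normalization and lowess correction and to -0.38 in the deposited values. In the deposited values the median over all genes was itself -0.53, so the members stood 0.15 above it. The brightest 10% of genes had a median of 0.24 after scaling. Only Rps4l was 2-fold lower among the 23, and 11.9% of 4785 genes were 2-fold apart. Rps24 (0.37), Rpl37a (0.36) and Rps10 (0.33) were the highest of the bright members, and Rpl41 (-0.02) the lowest of them. Rpl22 (0.57) and Rpl13a (0.54), both of the large subunit and both dim, stood above these, and Rps27 (-0.52), also dim, below.

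At CT14 the Clock mutant read lower than wild type in 17 of 23 members, with a median log2 ratio of -0.19, where 51.1% of all genes lay below 0. That direction was kept after quantile normalization (-0.11), lowess correction (-0.11) and in the deposited values (-0.27). The brightest 10% of genes had a median of -0.06 after scaling and 0.00 after quantile normalization. Rps18 (20752 in wild type against 15245, -0.44), Rplp0 (21463 and 16568, -0.37) and Rpl19 (14976 and 12231, -0.29) were the lowest of the bright members. Rpl41 (5544 and 7060, 0.35) was the highest, and Rpl7 (0.12), Rps4x (0.08) and Rpl10a (0.05) also lay above 0. Only Rpl7l1 was 2-fold lower among the 23, beside 9.89% of 4783 genes 2-fold apart. Of the 4 ratios against wild type, this one and that of the Cry-deficient mice at CT14 kept their direction under each scaling tried.

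**Figure D4:**
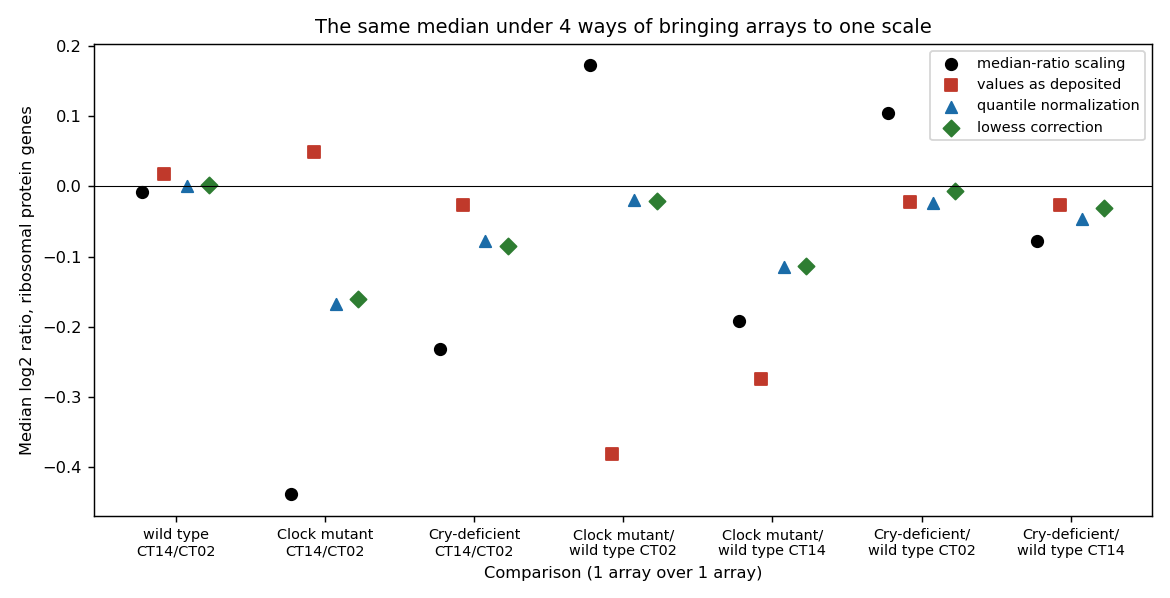
Median log2 ratio of the 23 kept members in each comparison under 4 treatments of the arrays (1 factor per array, values as deposited, quantile normalization, lowess correction). The wild-type median over time stays between -0.01 and 0.02 and the ratios at CT14 stay below 0, while the medians that involve a CT02 array of a mutant move towards 0 or cross it.

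The Cry-deficient mice differed little from wild type in these genes. At CT02 the median log2 ratio was 0.11 (17 of 23 above 0, beside 51% of all genes), and the brightest 10% of genes had 0.12. The median of the members turned to -0.02 after quantile normalization and in the deposited values, where all genes had -0.12. At CT14 the median of the members was -0.08 (21 of 23 below 0, beside 52%), and the brightest 10% of genes had -0.03. That of the members was -0.05 after quantile normalization and -0.03 as deposited. At CT02 only Rps27 was 2-fold lower among the 23, beside 6.82% of 4750 genes 2-fold apart, and at CT14 none was, beside 4.81% of 4759. At CT02 Rpl6 (18037 and 21093, 0.23), Rps7 (0.20) and Rps3 (0.20) were the highest of the bright members. Of the 18 bright members Rplp0 stood lowest at CT14 (21463 and 17299, -0.31), followed by Rpl37a (8999 and 7799, -0.21) and Rps28 (-0.16). Macrophage markers, 9 of 9 kept, summed to 33693 scaled units on the Cry-deficient CT02 array and to 20314 to 25965 on the other 5, and their part in these ratios was not tested.

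The difference of the time ratio between each mutant and wild type was read gene by gene, with the wild-type arrays shared by both. For the Clock mutant its median was -0.40 over the 23 members (19 below 0, beside 50.4% of all genes), against -0.27 in the brightest 10% of genes. It was -0.08 after quantile normalization and 0.09 as deposited, where all genes had 0.44. For the Cry-deficient mice the median was -0.16 (18 below 0, beside 49.7%), against -0.15 in the brightest 10% of genes. It was -0.04 after quantile normalization and 0.02 as deposited, where all genes had 0.18. In the Clock mutant, Rps4l (1.06) and Rpl7l1 (-1.04) were past 2-fold, beside 13.2% of 4632 genes. In the Cry-deficient mice no member was, beside 10.5% of 4662. At a fold of 1.5 the members apart numbered 3, 6 and 1 of 23 over time in wild type, the Clock mutant and the Cry-deficient mice, where 14.8%, 23.2% and 16.4% of all genes were. For the Clock mutant set against wild type there were 1 at CT02 and 2 at CT14 (31.2% and 25.9% of all genes), and for the Cry-deficient mice 1 and 1 (21.5% and 15.8%). The differences of time ratios had 4 and 2 (33.6% and 26.9%). All of these shares of the 23 members were below those of all genes, except that of the Clock mutant over time, 6 of 23.

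The dim kept members departed one by one from the bright ones. Rps4l, a paralog of Rps4x, had the widest range of all kept members, 3.67-fold, with 2112, 1517, 675, 1012, 2475 and 2428. Both Clock mutant arrays were lowest and both Cry-deficient arrays highest, and the share of all genes with such an order of genotypes was not counted. It was 3.13-fold lower in the Clock mutant than in wild type at CT02 (log2 ratio -1.65, -1.62 after quantile normalization and -1.91 as deposited) and lower at CT14 too (-0.58). In the Cry-deficient mice it was 1.60-fold higher than in wild type at CT14 (0.68). Its time ratio was 0.58 in the Clock mutant, the highest of the kept members there, and -0.48 in wild type. Its probe set is marked as shared by similar transcripts, and a further one read 689, 654, 562, 610, 189 and 685, around the floor, without the same pattern.

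Rpl7l1, related in sequence to Rpl7, read 745, 1273, 729, 485, 593 and 1047. It was higher at CT14 in wild type (1.71-fold) and in the Cry-deficient mice (at least 1.73-fold) and was under the floor at CT14 in the Clock mutant. There it was at least 2.10-fold lower than in wild type, a log2 ratio of -1.07 (-1.04 after quantile normalization and -1.21 as deposited). Its values lay near the floor on all 6 arrays.

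Rpl22, an RNA-binding large-subunit protein, read 1081, 586, 1609, 1157, 842 and 806. It was at least 1.78-fold lower at CT14 than at CT02 in wild type, the largest time ratio of any kept member there, and at least 1.91-fold higher in the Clock mutant than in wild type at CT14. Rps27, a zinc-finger protein of the small subunit, read 3815, 2487, 2663, 2136, 1903 and 2153, with the wild-type CT02 array above the other 5. Against that array it was only just 2-fold lower in the Cry-deficient mice, and less than 2-fold after quantile normalization (log2 ratio -0.95). Rpl13a, known for its part in the translational silencing of inflammatory mRNAs, read 1331, 1687, 1939, 1703, 1189 and 1594, within 1.63-fold. The median log2 range over the 6 arrays was 1.07 for these 5 dim members, 0.49 for the 18 bright ones, 0.48 for the brightest 10% of genes and 0.83 for all kept genes. Narrow ranges were thus common to bright probe sets, and the narrowest of the family were those of Rps4x (0.24), Rpl10a (0.26) and Rpl7a (0.26). A further probe set of Rpl10a ranged more widely, from 8080 to 15399 scaled units.

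Probe sets of the same gene give the only spread within an array that these data hold. Rpl10a, Rps24 and Rps28 each had 2 probe sets above the floor on all 6 arrays, and over the 7 ratios their log2 values differed by a median of 0.17 and by 0.67 at most, with 15 of 21 pairs on the same side of 0. For all 429 genes with such a pair the median difference was between 0.20 and 0.47, by comparison. Rps24 gave -0.59 and -0.65 for CT14 over CT02 in the Clock mutant, and Rps28 -0.61 and -0.32. Over time in the Cry-deficient mice the values of Rps24 were -0.17 and 0.17, those of Rps28 -0.23 and -0.21. The brighter probe set, used for the gene, is marked as built under reduced rules for Rps24 and for a sequence family for Rps28. Rpl10a gave 0.26 and 0.93 at CT02 when the Clock mutant was set against wild type, the widest gap, with the higher value from a probe set marked for a sequence family. Gaps of this size are as large as the medians of the family in the mutants.

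A further 39 probe sets carried several symbols of which 1 or more fit the family's naming, and 34 of them passed the floor. Their median log2 ratio over time was 0.01 in wild type (17 of 34 below 0). It was -0.31 in the Clock mutant (29 below, beside 49.8% of all genes) and -0.21 with Cry deficiency (31 below, beside 50.3%). Over time in the Clock mutant 2 of the 34 were 2-fold higher, with a highest log2 ratio of 1.98, and 0 were 2-fold lower. Against wild type the medians of these probe sets were 0.27 (CT02) and -0.05 (CT14) for the Clock mutant, and 0.18 and -0.06 for the Cry-deficient mice. These probe sets took no part in choosing the members. In the mutants their medians lay on the same sides of 0 as those of the 23 kept members. They give no separate check of those sides, since they were read on the same arrays with the same scaling. The medians of the 485 brightest kept genes lay on those sides too, at -0.29 (Clock mutant) and -0.16 (Cry-deficient) over time. Ratios of these several-symbol probe sets under other scalings are not given here.

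Members with and without the pyrimidine run near the annotated start had like medians over time within each genotype. The 7 kept members with a run and the 13 kept members with a window but no run had equal medians of -0.46 in the Clock mutant over time, and in wild type they had -0.03 and -0.00. The Cry-deficient medians were -0.23 and -0.24. With and without a run, the medians were further apart for the Clock mutant against wild type at CT02 (0.15 and 0.25). The same held for the time ratio of the Cry-deficient mice minus that of wild type (-0.14 and -0.24). The 3 members with an E-box (Rpl13a, Rpl19 and Rps19) had time ratios of 0.34, -0.28 and 0.01 in wild type, while those of the Clock mutant were -0.19, -0.63 and -0.32 and those of the Cry-deficient mice 0.42, -0.40 and -0.25. In the deposited values the Clock mutant ratios were 0.31, -0.13 and 0.18, so those of Rpl13a and Rps19 turned above 0, and after quantile normalization they were -0.24, -0.36 and -0.10.

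Other gene groups of the ribosome and of liver's abundant complexes were set beside the family. Rpsa, a small-subunit protein whose symbol falls outside the rule, read 8590, 9121, 6423, 7086, 8404 and 8922, lower in the Clock mutant than in wild type at both times (-0.42 and -0.36) and without the drop at CT14 (0.14). Fau, whose product includes another small-subunit protein, was not kept. Subunits of oxidative phosphorylation, the respiratory complexes and ATP synthase (55 of 63 kept), lay below 0 over time in both mutants after scaling, as the family did: their medians were 0.02 in wild type, -0.28 in Clock mutant and -0.11 in Cry-deficient mice, and after quantile normalization 0.01, -0.02 and 0.02. Proteins of the mitochondrial ribosome (55 of 61 kept) had medians of 0.08, -0.09 and 0.06, and proteasome subunits (34 of 37 kept) of -0.03, -0.15 and -0.07.

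**Figure D5:**
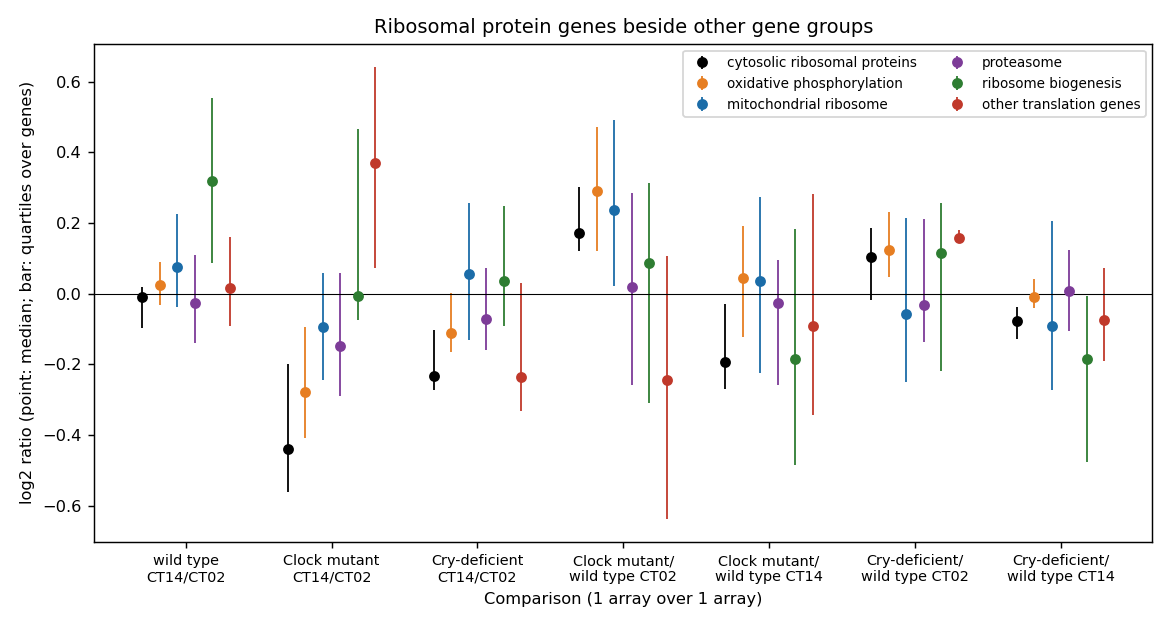
Median log2 ratio (points) with quartiles (bars) of the 23 kept members and of the other gene groups in the 7 comparisons. In wild type over time the ribosome biogenesis genes stand at 0.32 and the ribosomal proteins at -0.01, and in the Clock mutant over time the ribosomal proteins have the lowest median of the 6 groups at -0.44 (0.05 in the values as deposited).

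Genes that build ribosomes, as opposed to being part of them, had another pattern over time in wild type. Of 36 measured biogenesis genes 30 were kept, and their median log2 ratio of CT14 over CT02 in wild type was 0.32, with 25 of 30 above 0 (beside 49% of all genes) and 2 past 2-fold (beside 4.65%), and 0.31 after quantile normalization and 0.35 as deposited. Nop56, a core protein of the particles that methylate rRNA, was under the floor at CT02 and read 1709 at CT14 (log2 ratio at least 1.5), and Gnl3, a nucleolar GTPase, was at least 1.11 higher in the same way. The medians of the biogenesis genes over time in the mutants were -0.01 (Clock) and 0.04 (Cry-deficient) after scaling. In the deposited values the median over all genes was 0.47 (Clock) and 0.20 (Cry-deficient) over time, beside 0.02 in wild type. The deposited medians of the biogenesis genes in the mutants are not given here. Set against wild type at CT14, the Clock mutant had a median of -0.19, and 4 of 30 were 2-fold lower (Nop56, Bysl, Eif6 and Ubtf, beside 5.71% of all genes), while the ribosomal proteins of that comparison also had -0.19. Other genes whose mRNAs begin with a TOP motif (11 of 13 kept) had medians over time of 0.02 in wild type and of 0.37 in the Clock mutant, where Eif4b, an initiation factor, read 761 and 6274 (3.04) and Tpt1 25815 and 13949 (-0.89). After scaling, Eef1a1, an elongation factor of the same list, read 16028 and 12275 in the Clock mutant (-0.38), against 12726 and 13087 in wild type (0.04). These ratios were near those of the bright ribosomal proteins, while the median of its own list was 0.37 in the Clock mutant. Eef1a1 was named after its values were seen, and its ratios under other scalings are not given here.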

How the data were processed

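Each sample was 1 array, placed in its group by its title. The intensities the authors deposited are whole numbers, some below 0; the sources used here name no software or background subtraction. Gene names came from the array platform's annotation: 10833 probe sets had 1 symbol and 396 several. Each array was divided by its median ratio to the geometric mean across arrays, taken on 6065 probe sets bright and positive throughout, with log2 offsets of 0.12, 0.15, -0.43, 0.07, -0.00 and 0.20. Values were raised to the floor, the pooled median (606 scaled units), before log2, so a fold against the floor is a bound ("at least"), and none is given where both values were under it. A gene was its brightest probe set and was kept when its mean reached the floor.

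Log2 ratios, counts at least 2-fold apart and medians are descriptions of these arrays, whose number limits the precision. Named were the 3 highest and 3 lowest members of a comparison above the floor, members past 2-fold, at the floor, with discordant probe sets or with the narrowest or widest range, the stalk proteins and paralogs, and up to 3 genes of each other list; Bysl, Eif6, Ubtf, Gnl3 and Eef1a1, and members given by their role, were named after their values were seen. The members, gene lists and alternatives were chosen with earlier results of these data known. Alternatives were the deposited values, quantile normalization, lowess (span 0.3), and other floors, filters, probe-set rules and folds. The procedure was tested on simulated data. Python 3.11.15, numpy 2.4.6, pandas 2.3.3, statsmodels 0.14.6 and matplotlib 3.10.9 were used.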

Additional observations from a re-analysis of the deposited data

Results flagged for a closer look

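The time ratio of Rps4l lay on opposite sides of 0 in the Clock mutant (0.58) and in wild type (-0.48), a difference of 1.06 on the log2 scale. The time ratio of Rpl7l1 was 0.77 in wild type and at most -0.27 in the Clock mutant, whose CT14 value was under the floor, a difference of -1.04. Each difference rests on 4 arrays, 1 per group, and was not tested.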

How the results depend on the processing

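No paired analysis was possible because each genotype and time had 1 array and the labels carry no replicate numbers. The median log2 ratio of the 23 kept members over time in wild type stayed between -0.04 and 0.02 under the 15 alternatives run, and those of the Cry-deficient mice over wild type at CT14 between -0.10 and -0.03. In the deposited values the medians were 0.050 (Clock mutant over time), -0.027 (Cry-deficient over time), -0.38 (Clock mutant over wild type at CT02), -0.022 (Cry-deficient over wild type at CT02), and 0.088 and 0.017 for the time ratio of Clock mutant and Cry-deficient mice minus that of wild type; past 2-fold were 2 members (Clock mutant at CT02), 1 and 1 (both differences of time ratios). After quantile normalization the same 6 medians were -0.17, -0.078, -0.019, -0.023, -0.084 and -0.042, and after lowess correction -0.16, -0.084, -0.021, -0.0063, -0.085 and -0.017; with both, 0 members were past 2-fold in the Cry-deficient mice at CT02 and 1 in the difference of the Clock mutant. That count at CT02 was also 0 when no member was used for scaling and when the Clock mutant CT02 array was left out of scaling, floor and filter; without the Cry-deficient CT02 array in these, 1 member was past 2-fold in the Clock mutant over time and 2 at CT14. Without the filter on dim genes the counts over time were 1 for wild type and 1 for the Clock mutant, and against wild type 2 (CT02) and 2 (CT14) in Clock mutant mice and 2 in Cry-deficient mice at CT02. With a filter at the 75th percentile the counts at CT02, at CT14 and in the difference of the Clock mutant were 0, 0 and 0. The same counts were 0 under a rule meant to leave out the paralogs. That rule dropped symbols ending in l or in l and a digit. Rpl6, Rpl7 and Rpl8, which are no paralogs of this kind, thus went with Rps4l and Rpl7l1, and 18 members were left. Probe sets with no letter mark gave 0 at CT02 and 1 in the difference of the Clock mutant. When a gene's probe sets were averaged the median of the Clock mutant over time was -0.29 and its difference from wild type -0.29, with counts of 1 in wild type over time, 1 in the Clock mutant over time, 3 in the Clock mutant at CT14, 2 in the Cry-deficient mice at CT02 and 1 in their difference. At 1.5-fold the counts over time were 3 in wild type, 6 in the Clock mutant and 1 in the Cry-deficient mice, 2 and 1 in the Clock mutant and Cry-deficient mice at CT14, and 4 and 2 in the differences. After the data were seen, probe sets of several symbols were added, which gave medians of -0.33 (Clock mutant over time) and -0.088 (Clock mutant at CT14) and counts of 2, 2, 2, 2, 4 and 1 in the Clock mutant over time, at CT02 and at CT14, the Cry-deficient mice at CT02 and both differences; counting probe sets in place of genes gave over time 1 for wild type and 1 for the Cry-deficient mice, and for the Clock mutant 2 at CT02 and 2 at CT14. The cause of these changes was not tested, except that the filters and the paralog and probe-set rules change which genes are counted. Signal over background limits the dim members: 11 of 34 had means under the floor.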
